A study of Mus musculus with 6 samples.

Results

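The 8 genes described here encode the enzymes that make serine and move its carbon onto folate: Phgdh, Psat1, Psph, Shmt1, Shmt2, Mthfd1, Mthfd2 and Mthfd1l. They were taken by gene name from a table of 27480 genes, in which each of the 8 had 1 row, and all 8 passed the filter on low counts. The RNA was that of OT1 CD8+ T cells, cytotoxic mouse T cells with a transgenic receptor against an ovalbumin (OVA) peptide. Compared were 3 libraries labelled OE vector, the overexpression control, and 3 labelled OE PTMA, where PTMA is prothymosin alpha, an acidic protein of the nucleus. The labels give wild type as the genotype of all 6 libraries and OVA peptide for 48 h as the treatment of all 6. They name neither the type of vector nor its promoter. Since no label ties a replicate to an animal or culture of its own, p-values reflect only the spread among these libraries, and that spread may be technical.

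Cells make serine from 3-phosphoglycerate, an intermediate of glycolysis, in a chain of reactions carried out by Phgdh, Psat1 and Psph. Serine hydroxymethyltransferase then splits serine into glycine and a one-carbon unit held by tetrahydrofolate, with Shmt1 as the cytosolic and Shmt2 as the mitochondrial isoform. In mitochondria Mthfd2 oxidises that unit and Mthfd1l releases it as formate, which leaves for the cytosol, where Mthfd1 puts it back onto folate for the synthesis of purines and thymidylate. Activated T cells are known to induce this pathway before they divide.

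Library totals lay between 54989408 and 66767589 counts, and a count of 0 allows up to 0.0456 to 0.0536 CPM (counts scaled by library size and TMM factor). Ptma itself had 783 to 1146 CPM in the vector and 1152 to 1346 CPM in the PTMA libraries, without overlap by a narrow margin, and did not pass the test (log2 fold change 0.44, SE 0.13, edgeR quasi-likelihood adjusted p = 0.951). The 9 markers of CD8 T cells were present in every library, with a summed level of 5974 to 6592 CPM in the vector and 6099 to 6559 CPM in the PTMA libraries. Of the markers of other cells, the 8 of oocytes summed to 24.7 to 34.3 CPM in the vector and 1.94 to 4.34 CPM in the PTMA libraries, where Zp2 was at 0. The largest part of the vector sum was Gdf9 (12.45 to 24.67 CPM, against 0.616 to 1.867 CPM in the PTMA libraries), and Oosp1 and Nlrp5 overlapped between groups. The 6 markers of mature dendritic cells summed to 20.6 to 21.7 CPM and 26.6 to 30.6 CPM, with Ccl17 at 0 in the vector libraries and in PTMA 3. Ccl22, Fscn1 and Cacnb3 were higher in every PTMA library. Cd83, the largest part of the sum (15.3 to 17.3 CPM in the vector, 13.7 to 17.2 CPM in the PTMA libraries), and Itgax (2.54 to 3.85 CPM against 2.40 to 2.98 CPM) overlapped. The B cell markers summed to 3.95 to 4.95 CPM in the vector and 5.37 to 6.69 CPM in the PTMA libraries. Most of that sum was Cd79b, and Ms4a1 went the other way (0.290 to 0.434 CPM against 0.0616 to 0.153 CPM). Markers of erythroid cells (0.248 to 0.387 CPM against 0.0765 to 0.122) and adipocytes (0.0929 to 0.214 CPM against 0 to 0.077) were scarce and did not overlap between groups either, with Hbb-bs, Adipoq and Cidec at 0 in the PTMA libraries. Of these markers, Adipoq was also at 0 in vector 2 and 3, Cidec in vector 1 and Hbb-bs in vector 2, so these sums rest on few counts. Those of CD4 T cells and myeloid cells overlapped and summed to at most 7.91 CPM. The part of these cells in the results on the enzymes was not tested. In bulk RNA, fewer cells of a type and less RNA per cell cannot be told apart.

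The stretches just upstream of 5 of the genes are shown. They are those of isoform pairs compared below (Shmt1 with Shmt2, Mthfd1 with Mthfd1l) and of Psat1, the serine synthesis gene with the smallest p-value. Each is the 150 bases before the transcription start, 5′ to 3′ on the gene's own strand, from RefSeq on GRCm38.p6. Capitals mark CCAAT boxes (CCAAT, or ATTGG on the other strand) and the core of the motif of the nuclear respiratory factor NRF-1 (GCATGCG, or CGCATGC on the other strand). Mthfd2, the other mitochondrial enzyme set against Mthfd1, is not shown, and its 150 bases hold 3 CCAAT boxes. The stretches shown therefore do not divide the compartments by this motif.
Shmt1, chr11:60811266-60811415, minus strand: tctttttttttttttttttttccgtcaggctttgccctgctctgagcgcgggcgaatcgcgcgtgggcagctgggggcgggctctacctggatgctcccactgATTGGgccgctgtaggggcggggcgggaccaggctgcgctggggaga
Shmt2, chr10:127522445-127522594, minus strand: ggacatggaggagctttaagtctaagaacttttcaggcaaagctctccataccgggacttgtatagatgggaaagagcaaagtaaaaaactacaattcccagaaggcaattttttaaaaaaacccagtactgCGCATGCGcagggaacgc
Mthfd1, chr12:76255082-76255231, plus strand: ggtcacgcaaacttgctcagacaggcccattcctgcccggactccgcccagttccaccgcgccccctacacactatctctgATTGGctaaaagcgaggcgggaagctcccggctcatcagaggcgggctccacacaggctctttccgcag
Mthfd1l, chr10:3972925-3973074, plus strand: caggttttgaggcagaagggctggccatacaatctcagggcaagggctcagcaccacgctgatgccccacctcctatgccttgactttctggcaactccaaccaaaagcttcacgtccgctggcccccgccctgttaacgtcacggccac
Psat1, chr19:15925060-15925209, minus strand: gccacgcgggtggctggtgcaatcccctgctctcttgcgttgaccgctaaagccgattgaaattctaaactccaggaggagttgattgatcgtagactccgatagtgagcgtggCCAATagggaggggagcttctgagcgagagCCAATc

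All 8 genes were found in the RefSeq promoter table, with 9 promoters of 300 bases (250 before and 50 after the start), because Psat1 has 2 listed starts, both inside the longer gene model of the deposited table. On both strands 5 motifs were searched, the CCAAT box and the NRF-1 core after the sequences had been seen. CCAAT boxes were present in 6 of the 9 promoters and in 37.4% of all 32851 promoters. Those 6 belong to Phgdh, Psat1, Psph, Shmt1, Mthfd1 and Mthfd2, 6 of the 8 genes. The NRF-1 core was found in Shmt2 alone of the 8, in both orientations that overlap each other, and in 3.6% of all promoters. The core of the C/EBP-ATF response element, TGATGNAA, was in none of the 9 and in 4.0% of all, the E-box CACGTG in none and in 7.2% of all, and the core of the antioxidant response element, TGACNNNGC, in Phgdh and Psph and in 12.4% of all. No searched motif lies within another. A match is a description of these letters, and a missing match says only that they are not in this window.

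Levels per length of the 8 genes spanned a 13.7-fold range. Phgdh, which catalyses the first step of serine synthesis, was highest, at 189.6 FPKM on average over the 6 libraries (fragments corrected for gene length and library size). Shmt2 followed at 71.5 FPKM, Psat1, the transaminase of the second step, at 35.7, Shmt1 at 30.9, Mthfd1 at 29.5, Mthfd2 at 23.1, Mthfd1l at 16.2 and Psph, the phosphatase of the last step, at 13.8 FPKM. Within each group neighbours in this order did not overlap, with the exception of Shmt1 and Mthfd1, whose ranges overlapped in both groups. Shmt1 lay above Mthfd1 in 5 of 6 libraries, at 28.6 ± 1.06 against 27.9 ± 0.47 FPKM in the vector and 33.2 ± 1.42 against 31.0 ± 1.03 FPKM in the PTMA group (SD, n = 3 each). The serine hydroxymethyltransferase RNA was thus weighted to the mitochondrial isoform, whereas of the later folate enzymes the RNA of cytosolic Mthfd1 exceeded that of both mitochondrial ones. These values say nothing on the amount of protein.

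**Figure D1:**
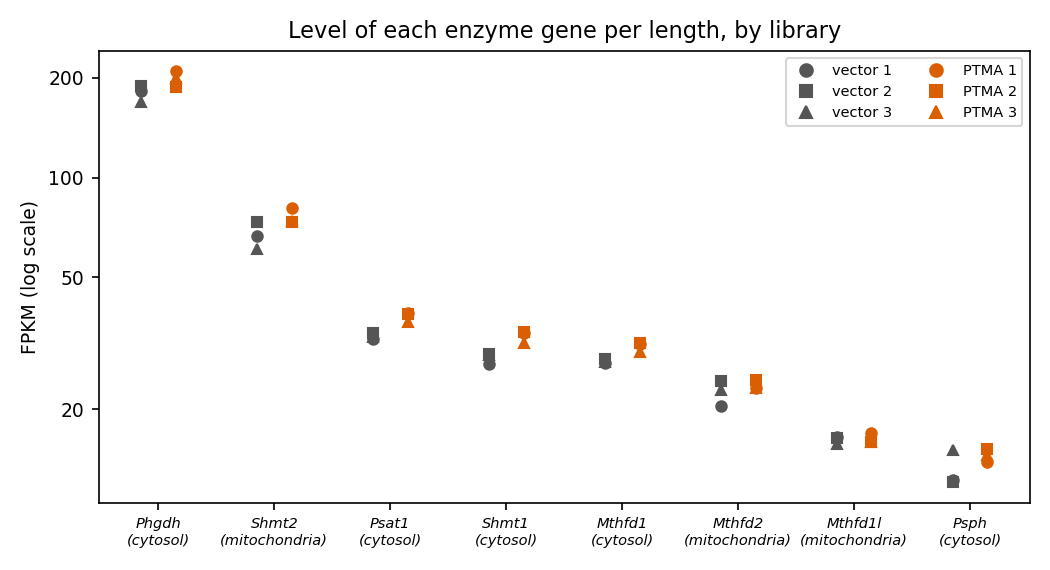
FPKM of each gene (log axis) by library, vector in grey and PTMA in orange, with 1 symbol per replicate number. Phgdh lay at 169.3 to 209.3 FPKM and Psph at 13.8 FPKM on average, and each gene lay below its left neighbour in 6 of 6 libraries, with the exception of Mthfd1, in 5.

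In the comparison of PTMA with vector, no member passed the test over all genes (edgeR quasi-likelihood, adjusted p = 0.951 to 0.993). Of all 16592 genes tested, 2 passed, or 0.0121%. The log2 fold changes of all 8 members were above 0, from 0.01 to 0.22, with a median of 0.15 against -0.02 over all genes tested, of which 46.8% were positive. Mthfd1l is the exception to this sign, since its value was below 0 under library totals and upper-quartile factors and when vector 2 or PTMA 1 was left out. Unadjusted, Psat1, Shmt1 and Shmt2 had p under 0.05, 3 of 8 members, where 4.65% of all genes did (1.92% in the higher direction). DESeq2 likewise called 0 members and had 5 at an unadjusted p under 0.05, against 3.73% of all genes in that fit. Limma on log2(FPKM + 1) called 0 and had 3, against 4.03% of all genes. Those 3 were Shmt1, Mthfd1 and Psat1, so Shmt2 was not among them. Summed over the 8, the level was 1380, 1371 and 1385 CPM in the vector group against 1586, 1524 and 1487 CPM in the PTMA group, 1.11-fold as high by the means.

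For 5 members (Phgdh, Psat1, Shmt1, Shmt2 and Mthfd1) every PTMA library lay above every vector library in CPM, whereas 5.39% of all genes did so. Among the 3561 genes with a mean of at least 66.7 CPM, that of the lowest member, 11.3% were higher without overlap, 64.8% had a positive log2 fold change and the median was 0.04. In the edgeR fit 4.04% of these 3561 genes had an unadjusted p under 0.05 in the higher direction, against 1.92% of all genes. On FPKM, which carry no TMM scaling, 4 members did not overlap, and Phgdh was the one lost.

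**Figure D2:**
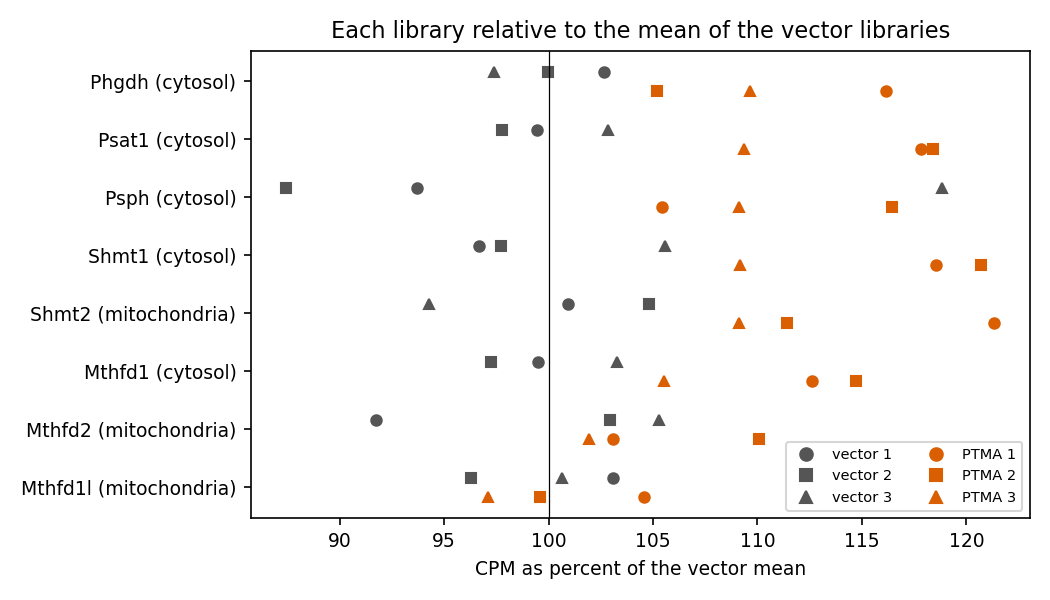
CPM of each library as a percent of the mean of the vector libraries, for each gene, with vector in grey, PTMA in orange and 1 symbol per replicate number. The PTMA points of Phgdh, Psat1, Shmt1, Shmt2 and Mthfd1 all lie to the right of the vector points, and those of Psph, Mthfd2 and Mthfd1l are interleaved with them.

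Of the serine synthesis genes, Phgdh (ENSMUSG00000053398, chromosome 3, 98313170 to 98339990 on GRCm38, as are the other coordinates) had 511, 498 and 485 CPM in the vector and 579, 524 and 546 CPM in the PTMA libraries, listed here and below by replicate number. The gap between the groups was 12.7 CPM, narrower than the spread among the PTMA libraries. Its log2 fold change was 0.14 (95% interval -0.0006 to 0.28, unadjusted p = 0.0508). Psat1 (ENSMUSG00000024640, chromosome 19, 15904678 to 15947337) had 156, 154 and 161 CPM in the vector and 185, 186 and 172 CPM in the PTMA libraries. PTMA 3 was the lowest of its group and still 10.2 CPM above vector 3, the highest of the other group. The log2 fold change of Psat1 was 0.20 (95% interval 0.06 to 0.35), with the smallest unadjusted p of the 8, 0.0122, and it was the 160th of the 16592 genes by p. Psph (ENSMUSG00000029446, chromosome 5, 129765558 to 129787449) had 59.4, 55.5 and 75.4 CPM in the vector and 66.8, 73.9 and 69.2 CPM in the PTMA libraries, so that vector 3 lay above all 3 PTMA libraries. Its log2 fold change was 0.14 (95% interval -0.12 to 0.41) with all libraries, 0.29 without vector 3 and 0.06 without vector 2. Psph shares 452 bases with Cct6a on the opposite strand, a gene at 277 CPM, and without known use of strand in the counting its level is uncertain.

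The serine hydroxymethyltransferase genes of both compartments each had their 3 PTMA values above their 3 vector values. Shmt1 (ENSMUSG00000020534, chromosome 11, 60788104 to 60811265) had 120, 121 and 130 CPM in the vector and 147, 149 and 135 CPM in the PTMA libraries. Its log2 fold change, 0.22 (95% interval 0.05 to 0.38, unadjusted p = 0.0151), was the largest of the 8, although vector 3 and PTMA 3 were only 4.45 CPM apart. Shmt2 (ENSMUSG00000025403, chromosome 10, 127517123 to 127522444) had 233, 242 and 218 CPM in the vector and 280, 257 and 252 CPM in the PTMA libraries. Vector 3, the highest vector library for Shmt1, was the lowest for Shmt2. The log2 fold change of Shmt2 was 0.19 (95% interval 0.03 to 0.35, unadjusted p = 0.0267). Shmt1 shares 184 bases with Smcr8 (12.8 CPM) and Shmt2 32 bases with Ndufa4l2 (0.21 CPM), both on the opposite strand.

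Among the enzymes that act after them, the groups did not overlap for the cytosolic one and overlapped for both mitochondrial ones. Mthfd1 (ENSMUSG00000021048, chromosome 12, 76255298 to 76319803), a single protein with synthetase, cyclohydrolase and dehydrogenase activities, had 137, 134 and 143 CPM in the vector and 155, 158 and 146 CPM in the PTMA libraries. The groups were 3.09 CPM apart, and the log2 fold change was 0.15 (95% interval -0.0008 to 0.30, unadjusted p = 0.0510). Mthfd2 (ENSMUSG00000005667, chromosome 6, 83305691 to 83317606), the mitochondrial dehydrogenase and cyclohydrolase, had 80.1, 89.9 and 92.0 CPM in the vector and 90.1, 96.1 and 89.0 CPM in the PTMA libraries. Only vector 1 stood below the PTMA libraries. The log2 fold change of Mthfd2 was 0.07 (95% interval -0.11 to 0.25) with all libraries and 0.01 without vector 1, 0.04 without PTMA 2, and 0.11 without vector 3 or PTMA 3. Mthfd1l (ENSMUSG00000040675, chromosome 10, 3973118 to 4167081), the mitochondrial formate synthetase, had 82.4, 77.0 and 80.4 CPM in the vector and 83.6, 79.6 and 77.6 CPM in the PTMA libraries. The groups lay on top of each other, and the log2 fold change of 0.01 had a 95% interval of -0.15 to 0.17, that is, from -10.1% to 12.2%. In GENCODE gene models, Mthfd2 shares 2799 bases with Gm43890 (0.66 CPM) and Mthfd1l 444 bases with Gm16074 (0.19 CPM), both on the same strand. The longest overlap of Mthfd1 is 19090 bases with Gm34868 on the opposite strand (0.05 CPM).

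**Figure D3:**
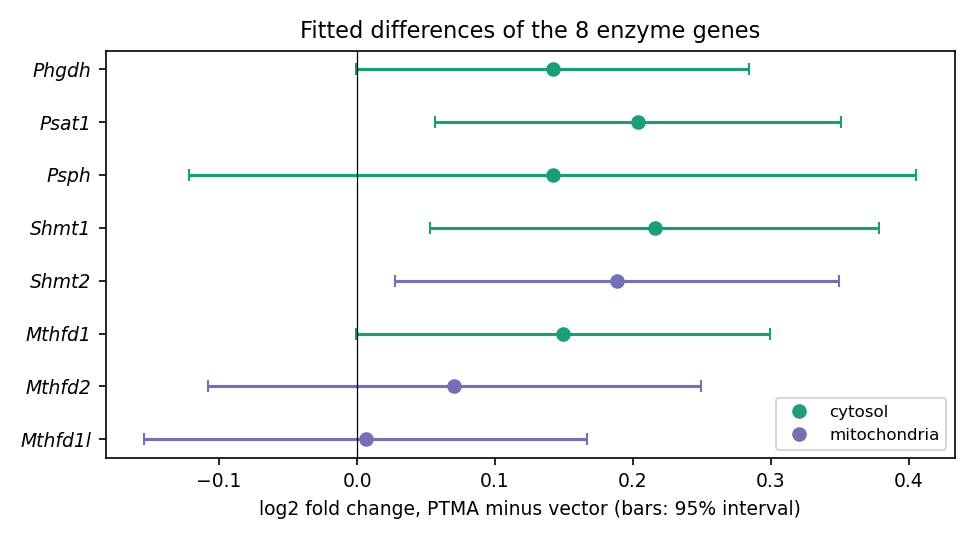
Log2 fold change of each gene (PTMA minus vector, edgeR) with its 95% interval, cytosolic enzymes in green and mitochondrial ones in purple. The intervals of Psat1, Shmt1 and Shmt2 lie above 0, and that of Mthfd1l is centred near 0, at 0.01; none of the 8 passed the test over all genes.

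PTMA 3 was the lowest PTMA library for 6 of the 8 members and the highest for none, and vector 3 was the highest vector library for 5 and the lowest for 2. The lowest adjusted p of any member in any alternative, 0.196 for Shmt1, came from the fit without vector 3. In that fit 5 members had an unadjusted p under 0.05, and the share of all genes that did rose with them, from 4.65% to 15.4%. Without vector 1 only Psat1 had such a p (2.59% of all genes), and without PTMA 1 likewise only Psat1 (4.21% of all genes). Without PTMA 2 only Shmt2 and Phgdh had one, as had 496 of all 17295 genes tested, and Psat1 and Shmt1 did not. Vector 3 also had the highest share of counts from mitochondrially encoded genes, 2.64%, against 1.86% to 1.998% in the other vector libraries and 1.91% to 2.38% in the PTMA libraries; the part of this in the member values was not tested.

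Mitochondrial and cytosolic isoforms were set against each other as ratios of FPKM within a library, in which library scaling cancels. Shmt2 stood at 2.44, 2.50 and 2.08 times Shmt1 in vector 1 to 3 and at 2.39, 2.15 and 2.33 times in PTMA 1 to 3. Vector 3 had the lowest ratio of all 6 libraries and vector 2 the highest, so the PTMA libraries lay inside the range of the vector libraries. The log2 ratio differed by -0.03 (exact permutation test over libraries, two-sided, p = 0.70, adjusted over 3 ratios 0.70).

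Mthfd1l stood at 0.601, 0.574 and 0.565 times Mthfd1 in vector 1 to 3 and at 0.539, 0.503 and 0.534 times in PTMA 1 to 3. Every PTMA library was below every vector library. On the log2 scale the vector libraries had a mean ratio of -0.79 ± 0.05 and the PTMA libraries of -0.93 ± 0.05 (SD, n = 3 each), a difference of -0.14 (exact permutation p = 0.10, the smallest that 3 against 3 libraries can give, adjusted over 3 ratios 0.30). With any 1 library left out the difference was -0.16 to -0.11. Mthfd2 stood at 0.743, 0.853 and 0.822 times Mthfd1 in the vector and at 0.738, 0.773 and 0.778 times in the PTMA libraries, where vector 1 lay among the PTMA libraries. That difference was -0.08 on the log2 scale (exact permutation p = 0.30, adjusted over 3 ratios 0.45). Of the summed FPKM of the 5 folate enzymes, the mitochondrial ones made up 65.1% ± 1.43 in the vector and 64.4% ± 0.86 in the PTMA libraries (SD over 3 libraries each), a difference smaller than the spread between replicates. This share mostly follows Shmt2, which had 66.9 of the 105.6 FPKM of the mitochondrial enzymes in the vector and 76.1 of 116.1 FPKM in the PTMA libraries, by the means.

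**Figure D4:**
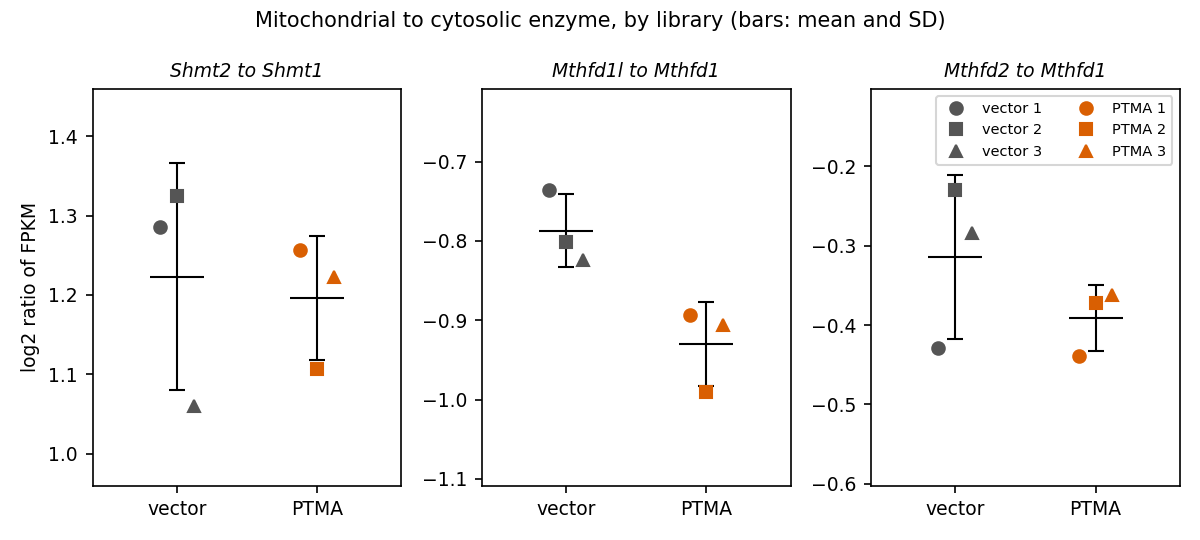
Log2 ratio of the FPKM of a mitochondrial to a cytosolic enzyme in each library, with group means and SD; the 3 panels span equal heights on different ranges. The PTMA libraries lie below the vector libraries for Mthfd1l to Mthfd1 and within their range for Shmt2 to Shmt1. For Mthfd2 to Mthfd1 the groups overlap, with vector 1 among the PTMA libraries and vector 2 and 3 above them.

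Around the 8 enzymes, 7 lists held 74 further genes of folate, glycine, purine, methionine and glutathione metabolism, serine transport and regulation, of which 60 were tested. None passed over all genes in either direction (edgeR, 0 higher and 0 lower; 2 at an unadjusted p under 0.05; DESeq2 called 0 and had 1, limma on log2(FPKM + 1) called 0 and had 1). Without vector 3, 10 of 61 had an unadjusted p under 0.05, beside the 15.4% of all genes in that fit. Of the 60, 37 were positive, with a median log2 fold change of 0.06, and 5 were higher and 2 lower without overlap, where 10.8% of all genes did not overlap in either direction. Of all genes tested 46.8% were positive. Among the 3561 genes with a mean of at least 66.7 CPM, 64.8% were positive, with a median of 0.04. The counts of positive genes per list below are to be read beside these shares.

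In the cytosolic folate list 6 of 10 tested genes were positive (median 0.05). Slc19a1, the reduced folate carrier that takes folate into the cell, had 132, 139 and 128 CPM in the vector and 157, 156 and 157 CPM in the PTMA libraries. Its PTMA libraries were nearly alike and all above the vector ones, and its log2 fold change of 0.24 (SE 0.06, adjusted p = 0.951) exceeded those of all 8 enzymes. In the mitochondrial folate and glycine list 5 of 10 were positive (median 0.01). Mthfd2l, the paralogue of Mthfd2, was scarce, at 3.61 ± 0.43 and 2.74 ± 0.89 CPM, and the glycine cleavage protein gene Gcsh had 35.9 ± 1.36 and 38.7 ± 1.99 CPM (SD, n = 3 each). Sfxn3, related to the mitochondrial serine carrier Sfxn1, had the highest level per length of that list, 46.1 FPKM, and a log2 fold change of 0.08 (SE 0.07).

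Of 6 genes of purine ring synthesis, the pathway that takes up formate, 5 were positive (median 0.08). Gart, which uses formyl folate, had 213, 212 and 214 CPM in the vector and 247, 228 and 218 CPM in the PTMA libraries, and Adsl 183, 183 and 185 CPM against 201, 208 and 189 CPM. Both were higher in all 3 PTMA libraries, by log2 fold changes of 0.12 each, and Paics, with the highest FPKM of the list, by 0.09 (SE 0.07) with overlap. Of the methionine cycle and salvage list 9 of 13 were positive (median 0.07). Mtap had a log2 fold change of 0.15 (SE 0.08), Mat2b of 0.14 (SE 0.08) and Mat2a, the enzyme that makes S-adenosylmethionine, of 0.05 (SE 0.06). Of the list of transsulfuration and glutathione synthesis 3 of 4 were positive (median 0.10), with Gss at 0.19 (SE 0.10), Gclc at 0.05 (SE 0.08) and Gclm at -0.11 (SE 0.09).

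Of the serine and glycine transport and breakdown list 4 of 7 were positive (median 0.03). Slc1a5, the abundant neutral amino acid transporter at 112.7 FPKM, had means of 518 ± 22.3 and 528 ± 41.0 CPM (SD, n = 3 each). Slc1a4, which carries serine, was near 1 CPM (1.09 ± 0.65 and 1.62 ± 0.04 CPM), and Slc36a4 had a log2 fold change of -0.15 (SE 0.12). The regulators were split, 5 of 10 positive (median 0.02). Atf4, a transcription factor known to drive the serine synthesis genes, had 68.8, 67.7 and 81.0 CPM in the vector and 65.8, 69.7 and 75.6 CPM in the PTMA libraries, and Myc had a log2 fold change of -0.03 (SE 0.06); neither differed beyond the spread between libraries. Asns, the asparagine synthetase and another known target of Atf4, stood at 44.2 ± 0.85 and 47.7 ± 1.82 CPM without overlap (log2 fold change 0.11, SE 0.08). Cebpb was scarce, at 1.34 ± 0.29 and 0.77 ± 0.16 CPM (SD, n = 3 each), with a log2 fold change of -0.80 (SE 0.33).

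**Figure D5:**
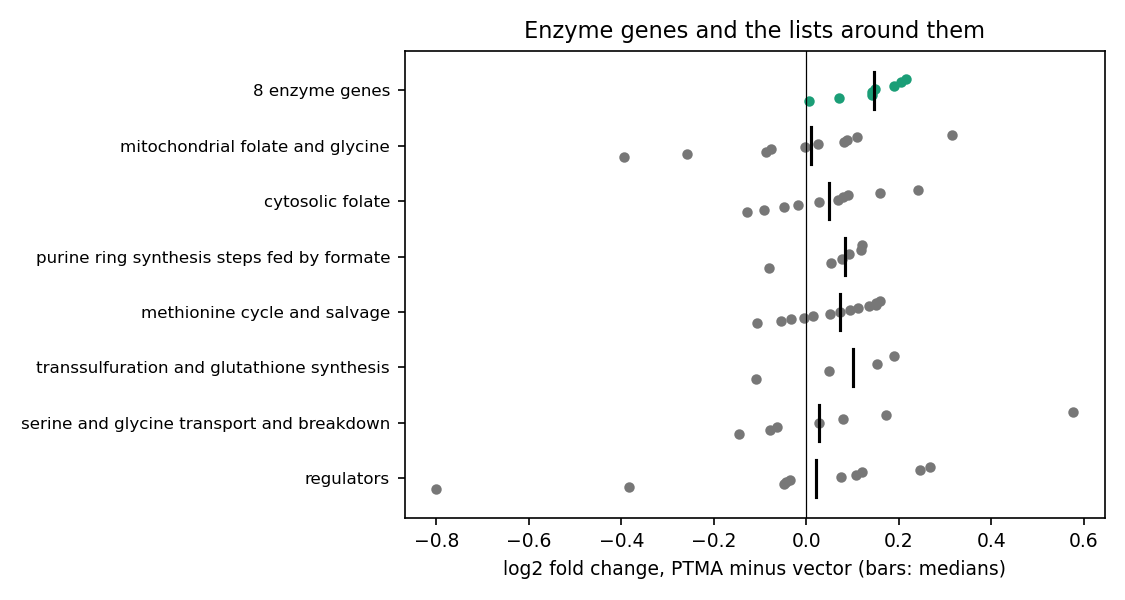
Log2 fold change (PTMA minus vector) of each tested gene, 1 point per gene, for the 8 enzymes and the 7 lists around them, with a bar at each median. The 8 enzymes have a median of 0.15 and the lists have medians from 0.01 to 0.10.

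The profile of the members' summed CPM over the 6 libraries was compared with those of 7079 named genes of at least 20 CPM, each log2 profile centred on its own mean. The nearest were Nup35, of the nuclear pore, Rrp1, a factor of ribosome biogenesis, and Cct3, a subunit of the cytosolic chaperonin, with root mean square differences of 0.01, 0.02 and 0.02 on the log2 scale over 6 libraries, against a median of 0.12. Nup35 had 40.8, 39.9 and 40.9 CPM in the vector and 46.5, 45.1 and 43.7 CPM in the PTMA libraries. Because these genes were picked for their nearness to the members' sum in the same 6 libraries, their likeness to it follows from the choice.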

How the data were processed

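Poly(A) RNA of 6 libraries, 3 vector and 3 PTMA, was sequenced in read pairs, per the labels' protocols. The authors deposited 1 table that holds, per the file headers, unnormalized whole-number counts and FPKM for each gene and library. FPKM are fragments corrected for gene length and for the size of the library. According to the submitters' processing notes HISAT2 (2.0), StringTie (1.3.0) and Bowtie (0.12.2) were used and the build was mm8, without saying for which step. How reads were counted, with or without strand and with what rule for multiple matches, is not given in the sources used here. Coordinates in the table are on GRCm38, since 99.75% of the 27405 gene identifiers shared with GENCODE M21 have the same start or end there.

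Groups and replicate numbers were taken from the sample titles. The comparison was fitted with edgeR 4.0.16 (R 4.3.3) on the counts of all 6 libraries, with TMM scaling, the filterByExpr function (minimum count 10), the quasi-likelihood test and group as the only term, which left 16592 genes. Adjustment over all of them was by Benjamini-Hochberg, and a gene passed at an adjusted p under 0.05. Log2 fold changes are PTMA minus vector, and 95% intervals come from the same fit. CPM are TMM-scaled, and FPKM were used as deposited for levels between genes and for ratios between isoforms, which were compared by exact two-sided permutation over libraries (scipy 1.17.1). These intervals rest on the spread between libraries, whereas the floor of 3 counts covers counting error only.

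The members, the 7 pathway lists, the 8 marker lists and the tests were chosen with earlier results of these data known. Named genes are the 8 members, the 2 genes with the smallest p-value and the gene with the highest mean FPKM of each pathway list, and the 3 genes nearest in pattern to the members' sum; Atf4 was named in addition after its values were seen. A gene of the cytosolic folate list that the rule names is not reported here. The alternatives were median-of-ratios and upper-quartile factors, library totals, no filter, robust edgeR, DESeq2 1.42.0, limma 3.58.1 on log2(FPKM + 1) or log2(FPKM + 0.1), a replicate block, and leaving out each library in turn. The script was tested on simulated counts whose planted changes were larger than those fitted for the members. Changes as small as theirs were not covered. Replicates differed by more than sampling noise (chi-square per gene 19.69 to 97.05), so none was counted as a duplicate.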

Additional observations from a re-analysis of the deposited data

How the results depend on the processing

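The number of members past the threshold was 0 in all 16 alternatives, as was that of the genes around them (47 to 64 tested), and the log2 fold changes of 7 members were positive in all 16. Mthfd1l, at 0.0062, went to -0.0213 under library totals and -0.0053 under upper-quartile factors, and to between -0.023 and 0.0444 when each library was left out. The members' median lay between 0.12 and 0.18. Without vector 3, 5 members had an unadjusted p under 0.05 (adjusted p of the 8 from 0.196 to 0.959), as had 15.4% of all genes and 10 of 61 genes around them. Of the genes around them, 4 of 64 had such a p with limma on log2(FPKM + 1) and no filter, as had 1302 of all 27480 genes. In the reported fit 2 of 60 had one, as had 771 of all 16592 genes. Without vector 1 or PTMA 1, Psat1 was the only member with such a p, and without PTMA 2 only Shmt2 and Phgdh had one. With each library left out, Psph lay between 0.0627 (without vector 2) and 0.2862 (without vector 3) and Mthfd2 between 0.0124 (without vector 1) and 0.1108 (without vector 3). Among all genes the number past the threshold was 0 with no filter on low counts, 47 with DESeq2, 1 with limma on log2(FPKM + 1) or log2(FPKM + 0.1) at a mean FPKM of at least 1, 0 with limma and no filter, 0 to 4 when each library was left out and 0 with the replicate block; the cause was not tested. Same-numbered libraries gave no sign of being pairs (correlations of deviations 0.255, -0.271 and -0.232 over 8843 genes). Across the groups the highest correlation was 0.486, between vector 3 and PTMA 2, and the lowest -0.42, between vector 1 and PTMA 2. Whether libraries with unlike numbers share a source was not tested. The replicate block changed no call of a member (log2 fold changes 0.01 to 0.22). The ratio of Shmt2 to Shmt1 changed sign when vector 1, vector 2 or PTMA 2 was left out (range -0.1093 to 0.0228), that of Mthfd1l to Mthfd1 stayed between -0.1615 and -0.1125 and that of Mthfd2 to Mthfd1 between -0.134 (without vector 1) and -0.0345 (without vector 2). With 3 libraries a group the intervals of single members were 0.28 to 0.53 wide on the log2 scale.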
